A study of Homo sapiens with 4 samples.

Results

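The 7 genes described here encode parts of the actin filament and its regulators in contractile cells: the tropomyosins TPM1 and TPM2, the muscle actins ACTA2 and ACTC1, and TAGLN, MYL9 and CNN1. They were followed in single-cell RNA libraries of human embryonic stem cells and of blastoids, the embryo-like structures grown from those cells. All 7 genes were listed in all 4 deposited tables, which together hold 23364 gene symbols, and all 7 passed the filter on low counts in every comparison. Cells with at least 500 detected genes and no doublet call were kept. Blastoid cells were called amnion-like when they had a unique molecular identifier (UMI, 1 counted transcript) of 2 or more of the 5 markers TFAP2A, TFAP2B, GABRP, VTCN1 and KRT7, and were called other blastoid cells when they did not. Trophectoderm also makes several of these markers, so the name stands for the rule.

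In contractile cells, myosin pulls on filaments of actin, and tropomyosin is a coiled coil that lies along the actin filament and governs which proteins bind it. Smooth muscle and myofibroblasts are known for the actin ACTA2, the actin-binding proteins TAGLN and CNN1, and the myosin regulatory light chain MYL9, while ACTC1 is the actin of heart muscle. Epithelia under tension and early mesenchyme use several of the same genes without being muscle. Many of these genes are classical targets of the transcription factor SRF, which binds a short motif called the CArG box.

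The samples were 2 of KhES1 cells kept undifferentiated in mTeSR-1 medium on Matrigel (hESC 1 and hESC 2) and 2 of KhES1 blastoids (blastoid 3 and blastoid 4). For the blastoids, dissociated cells were aggregated in microwells with Y27632, embedded in a PNIPAAm-based hydrogel, fed DMEM with FBS and then moved to iBlastoid medium. Every sample comes from the same stem cell line, no edited allele is named, and all cells were dissociated before 10x Genomics 3′ capture. Groups follow the sample descriptions, because the sample titles give all 4 samples the same day while the deposited tables give the blastoids a later one. No label says that samples of a group came from separate cultures. P-values for blastoid cells against hESC therefore measure only the spread between these samples, which may be technical. Between classes of cells of the same blastoids, p-values measure how far the class difference varies over the 2 libraries, which may be technical too.

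After filtering, 2238 and 3175 hESC cells and 2278 and 1916 blastoid cells remained, with 13255214 to 17679447 UMIs per library and medians of 4996 to 8798 UMIs per cell. The amnion-like rule took 360 cells (15.8%) of blastoid 3 and 626 cells (32.7%) of blastoid 4, against 11 and 5 cells of the hESC libraries. The hESC libraries shared 1317 cell barcodes and the blastoid libraries 1035, against 6 to 14 between groups, but only 23 barcodes were kept in both hESC libraries and 0 in both blastoid libraries. The summed level of 7 pluripotency markers was 3946 and 4114 UMIs per 1000000 UMIs (CPM) in hESC and 767 and 726 CPM in blastoids, and that of 10 mesenchyme markers was 18.2 and 19.1 CPM against 4038 and 3103 CPM. Of the muscle markers, the smooth muscle myosin MYH11 had 4 to 12 UMIs per library, the gut smooth muscle actin ACTG2 had 0 to 9, and of the 4 skeletal muscle markers MYOD1, MYOG, MYF5 and CKM only CKM was detected, with 2 UMIs in blastoid 4. Other smooth and heart muscle markers were present: DES had 10 to 44 UMIs, LMOD1 42 to 97 and SYNPO2 12 to 101, the heart troponin TNNT2 was at 2.72 and 2.64 CPM in hESC and 29.99 and 25.7 CPM in blastoids, and the heart troponin TNNI3 was at 82.1 and 66.3 CPM in hESC and 11.7 and 11.5 CPM in blastoids.

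The promoters of the members are shown first because the CArG box is the sequence that this gene family is known for. A RefSeq table on GRCh38.p14 holds windows that span the transcription start for 5 of the 7 genes, 9 windows in all, and has none for TAGLN and MYL9. The 250 bases before each start were searched on both strands for a CArG box, which is CC, 6 bases that are each A or T, and GG, and also with 1 of these 6 bases allowed to differ. The strict box was in 1.16% of the 35116 windows of all genes and the relaxed box in 7.04%. Among the members, 1 window of ACTC1 held 1 strict and 3 relaxed boxes, and 1 window of ACTA2 held 2 relaxed boxes. No match was found in the windows of TPM1, TPM2 and CNN1 or in the other windows of ACTA2 and ACTC1. TPM1 had 1 window, for a start at 63048489, while its gene span begins at 63042747, so that upstream end was not searched. Sequence beyond the 250 bases was not searched for any gene. The ACTA2 window lies at chr10:88952774-88953023 on the minus strand, and its boxes, in capitals, begin 121 and 71 bases before the start:
ACTA2: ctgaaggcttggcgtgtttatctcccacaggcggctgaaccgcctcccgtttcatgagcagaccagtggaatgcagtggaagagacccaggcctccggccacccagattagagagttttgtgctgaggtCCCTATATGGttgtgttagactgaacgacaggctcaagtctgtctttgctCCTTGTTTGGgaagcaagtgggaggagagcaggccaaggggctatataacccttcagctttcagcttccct

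The searched bases of the ACTC1 window that holds boxes overlap an annotated exon of ACTC1. The ACTC1 boxes begin 237, 200, 149 and 109 bases before the start, on the minus strand of chromosome 15, and the last of them is the strict one. Each is shown in capitals within 30 bases, at chr15:34795767-34795796, chr15:34795730-34795759, chr15:34795679-34795708 and chr15:34795639-34795668:
ACTC1 at 237: ctccccagctCCCTATTTGGccatccccct
ACTC1 at 200: ccctccccttCCTTACATGGtctgggggct
ACTC1 at 149: gcccttggctCCATGAATGGcctcggcagt
ACTC1 at 109: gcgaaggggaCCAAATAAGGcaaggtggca

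The first comparison set blastoids against stem cells over all kept cells, with the UMIs of each library summed and tested with edgeR's quasi-likelihood test; log2 fold changes are given ± SE, and p-values are adjusted over all genes by the Benjamini-Hochberg method. TPM1, ACTA2, ACTC1 and MYL9 rose in blastoids, by 4.06-fold to 8.45-fold, and none of the 7 genes fell. TPM2, TAGLN and CNN1 did not pass the adjusted p of 0.05. Of all 16332 genes tested, 49.9% passed, 27.1% as higher and 22.8% as lower, so a change as such was common. Stem cell and blastoid libraries were apart for 6 of the 7 members, TAGLN being the exception, against 77.7% of all genes tested. The median log2 fold change was 2.02 over the members and 0.05 over all genes tested. In summed samples, fewer cells that make a gene and less RNA of it per cell cannot be told apart.

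TPM1 (15:63042747-63071915), the broadly made tropomyosin, was at 354 and 382 CPM in hESC 1 and hESC 2 and at 1502 and 2462 CPM in blastoid 3 and blastoid 4. Both blastoid libraries lay far above the stem cells and differed from each other, blastoid 4 being the higher. The log2 fold change was 2.31 ± 0.27 (adjusted p = 0.000469). MYL9 (20:36541519-36551447), whose phosphorylation switches smooth and nonmuscle myosin on, was at 29.95 and 37.7 CPM in hESC and at 127 and 172 CPM in blastoids. The groups did not overlap, with a log2 fold change of 2.02 ± 0.21 (adjusted p = 0.0003).

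The actins had the largest fold changes of the 7 genes. ACTA2 (10:88935074-88991337), smooth muscle actin, was at 3.24 and 4.27 CPM in hESC, from 43 and 68 UMIs, and at 31.8 and 37.9 CPM in blastoids, from 480 and 670 UMIs. Its log2 fold change was 3.08 ± 0.21 (adjusted p = 4.83e-05). ACTC1 (15:34790230-34795549), cardiac actin, was at 8.60 and 9.68 CPM in hESC and at 67.0 and 71.2 CPM in blastoids, close together within each group. Its log2 fold change was 2.79 ± 0.15 (adjusted p = 1.95e-05). The actin coding sequences are nearly alike, and how reads that fit several actins were assigned is not given in the sources used here. The antisense gene of ACTA2 had 3 UMIs in all and that of TPM1 243, and whether strand was used in counting is likewise not given.

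TPM2 (9:35681993-35690056), the second tropomyosin of the list, was at 207 and 216 CPM in hESC and at 247 and 234 CPM in blastoids. Its libraries did not overlap, yet the log2 fold change was 0.06 ± 0.12 (adjusted p = 0.724). CNN1 (19:11538851-11550323), calponin, was at 6.41 and 7.23 CPM in hESC and at 12.3 and 8.82 CPM in blastoids, from 85 to 186 UMIs per library. Its log2 fold change of 0.49 ± 0.21 missed the threshold (adjusted p = 0.0823) and passed it without blastoid 4 (0.64, adjusted p = 0.00336).

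TAGLN (11:117199294-117207465), transgelin, was at 36.1 and 39.7 CPM in hESC and at 33.6 and 56.3 CPM in blastoids. The stem cell libraries lay between the blastoid libraries, and the log2 fold change was 0.13 ± 0.26 (adjusted p = 0.697). The direction hung on which blastoid library was used: without blastoid 3 TAGLN was higher in blastoids (0.50, adjusted p = 0.00148), and without blastoid 4 it was lower (-0.39, adjusted p = 0.0133). In both of these fits the remaining blastoid library was assumed to vary like the stem cell libraries.

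**Figure D1:**
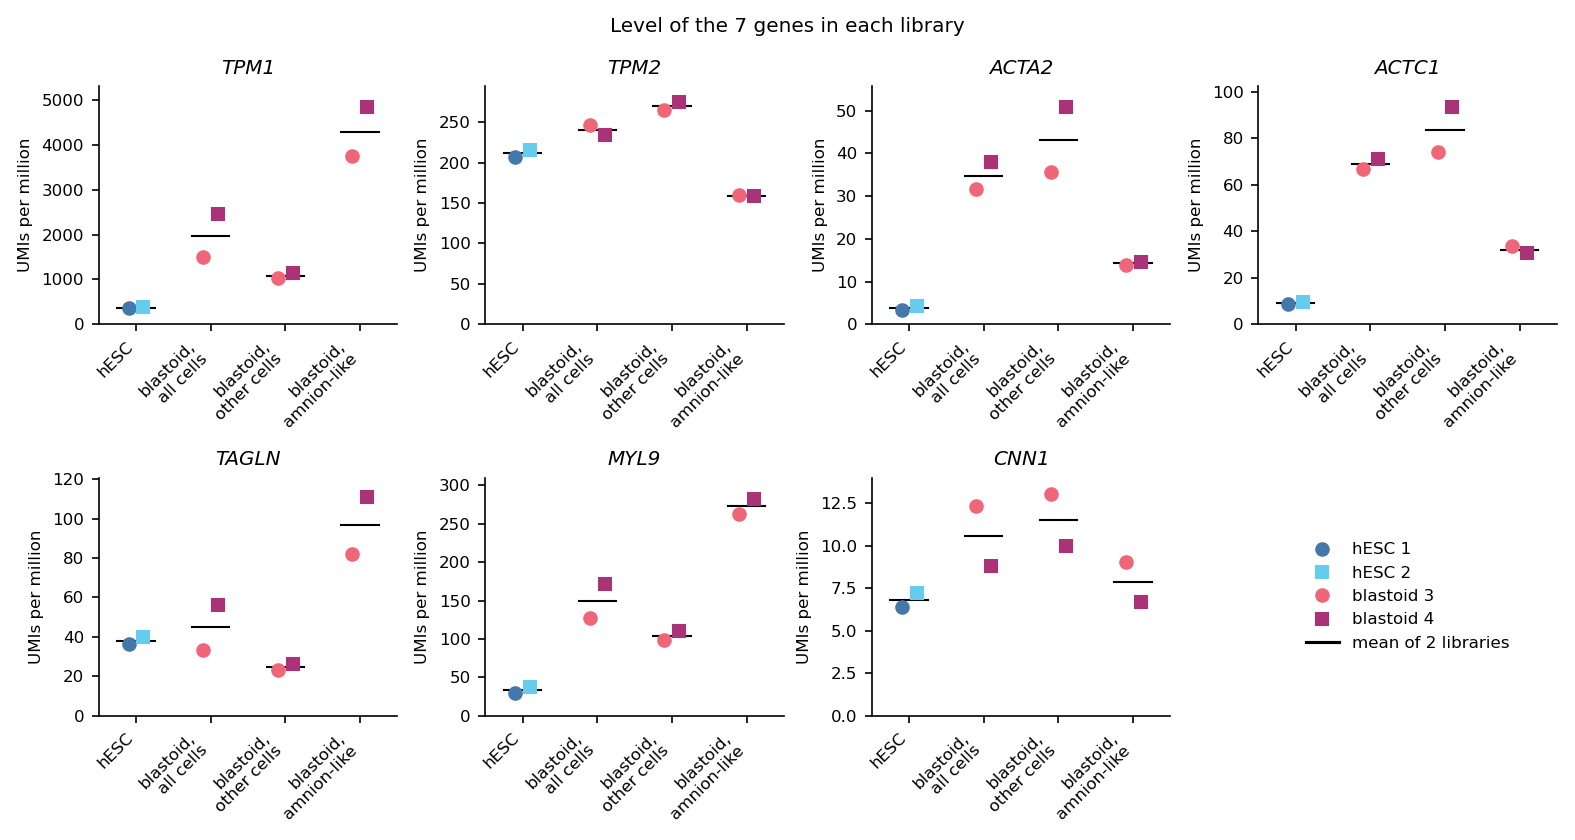
Level of each of the 7 genes in CPM (vertical axes, linear from 0, a separate scale per gene) in stem cells, all blastoid cells, other blastoid cells and amnion-like blastoid cells; points are libraries and bars the mean of 2 libraries. TPM1, TAGLN and MYL9 were highest in amnion-like cells, while TPM2, ACTA2 and ACTC1 were highest in the other blastoid cells.

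The second comparison set amnion-like cells against the other cells of the same blastoids, with the library as a block in the fit, and it divided the 7 genes. TPM1, TAGLN and MYL9 were higher in amnion-like cells, by 2.88-fold to 4.34-fold, and TPM2, ACTA2 and ACTC1 were lower, by 1.54-fold to 2.84-fold. CNN1 did not pass the threshold. Of all 14911 genes tested, 50.1% passed, 25.6% as higher and 24.4% as lower. Libraries of the classes were apart for all 7 members, CNN1 included, against 66.9% of all genes tested. The median log2 fold change was -0.41 over the members, which lay on both sides, and -0.02 over all genes tested.

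TPM1 was at 3762 and 4845 CPM in the amnion-like cells of blastoid 3 and blastoid 4 and at 1022 and 1150 CPM in their other cells. The gap between the cell classes was much wider than that between the libraries, with a log2 fold change of 2.12 ± 0.04 (adjusted p = 8.52e-16). TAGLN was at 82.3 and 111 CPM in amnion-like cells and at 23.2 and 26.3 CPM in the others, a log2 fold change of 2.11 ± 0.11 (adjusted p = 3.01e-11). MYL9 was at 262 and 283 CPM in amnion-like cells and at 98.1 and 111 CPM in the others, a log2 fold change of 1.52 ± 0.07 (adjusted p = 1.29e-11).

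The muscle actins went the other way. ACTA2 was at 14.0 and 14.5 CPM in amnion-like cells, from 37 and 91 UMIs, and at 35.6 and 50.8 CPM in the others, a log2 fold change of -1.51 ± 0.15 (adjusted p = 2.64e-07). ACTC1 was at 33.6 and 30.8 CPM in amnion-like cells and at 74.1 and 93.5 CPM in the others, a log2 fold change of -1.28 ± 0.12 (adjusted p = 7.51e-08). The tropomyosins parted as well, since TPM2, at 159 and 159 CPM in amnion-like cells and at 265 and 275 CPM in the others, fell by 0.62 ± 0.07 on the log2 scale (adjusted p = 9.42e-07). CNN1 was at 9.06 and 6.69 CPM in amnion-like cells and at 13.0 and 10.0 CPM in the others, and its log2 fold change of -0.41 ± 0.21 missed the threshold (adjusted p = 0.123).

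Set against the stem cells, each class of blastoid cells had its own pattern; both comparisons use the same hESC sums as the first one, and their values are given side by side. In the other blastoid cells 5 members passed as higher and 1 as lower, against a background of 53.4% over 15808 genes (28.4% higher, 25.1% lower), and all 7 members had libraries apart between groups, against 78.1% of genes. In the amnion-like cells 5 members also passed as higher and 1 as lower, against a background of 58.5% over 15115 genes (30.7% higher, 27.8% lower), and the libraries did not overlap for 6 of the 7, against 79.9% of genes. The medians over the members were 1.42 and 1.79 on the log2 scale, and those over all genes tested were 0.04 and 0.02.

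TPM1 rose in both classes, with log2 fold changes over hESC of 1.42 ± 0.15 in other blastoid cells (adjusted p = 4.13e-05) and 3.53 ± 0.18 in amnion-like cells (adjusted p = 6.85e-08). MYL9 rose likewise, by 1.48 ± 0.15 and 2.99 ± 0.15. For the actins the order was turned round, with 3.37 ± 0.24 and 1.91 ± 0.23 for ACTA2 and 3.05 ± 0.18 and 1.79 ± 0.16 for ACTC1. The amnion-like value of ACTC1 leaned on few cells, since 1 cell of blastoid 3 held 42 of its 89 UMIs. Without the cell with most ACTC1 UMIs in each class and each hESC library, a setting chosen after seeing the data, ACTC1 was at 17.8 and 27.5 CPM in amnion-like cells and at 70.4 and 88.8 CPM in the others. The log2 fold change of amnion-like cells was then 1.38 over hESC (adjusted p = 0.000353) and -1.64 over the other cells (adjusted p = 8.62e-10).

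TAGLN moved in opposite directions: it was 2.56-fold higher than in hESC in amnion-like cells (log2 fold change 1.35 ± 0.17, adjusted p = 5.27e-05) and 1.69-fold lower in other blastoid cells (-0.76 ± 0.15, adjusted p = 0.00184). The fall in other blastoid cells no longer passed when cells with a shared barcode were left out (-0.53, adjusted p = 0.0632) or when each cell was thinned to 2000 UMIs (-0.31, adjusted p = 0.293). TPM2 was 1.34-fold lower in amnion-like cells than in hESC (-0.43 ± 0.12, adjusted p = 0.0131), a call lost without hESC 1 (adjusted p = 0.111) or without hESC 2 (adjusted p = 0.123) and after thinning (adjusted p = 0.106). It did not pass in the other blastoid cells (0.21 ± 0.13, adjusted p = 0.2), but did when libraries were scaled by their size alone (0.35, adjusted p = 0.0335) or without blastoid 3 (0.29, adjusted p = 0.0362). CNN1 passed in other blastoid cells (0.60 ± 0.19, adjusted p = 0.0229), but not under DESeq2 (adjusted p = 0.161), without shared barcodes (0.142), after thinning (0.679) or without hESC 1 (0.146), hESC 2 (0.0726) or blastoid 3 (0.0509). In amnion-like cells its log2 fold change was 0.13 ± 0.24 (adjusted p = 0.66).

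**Figure D2:**
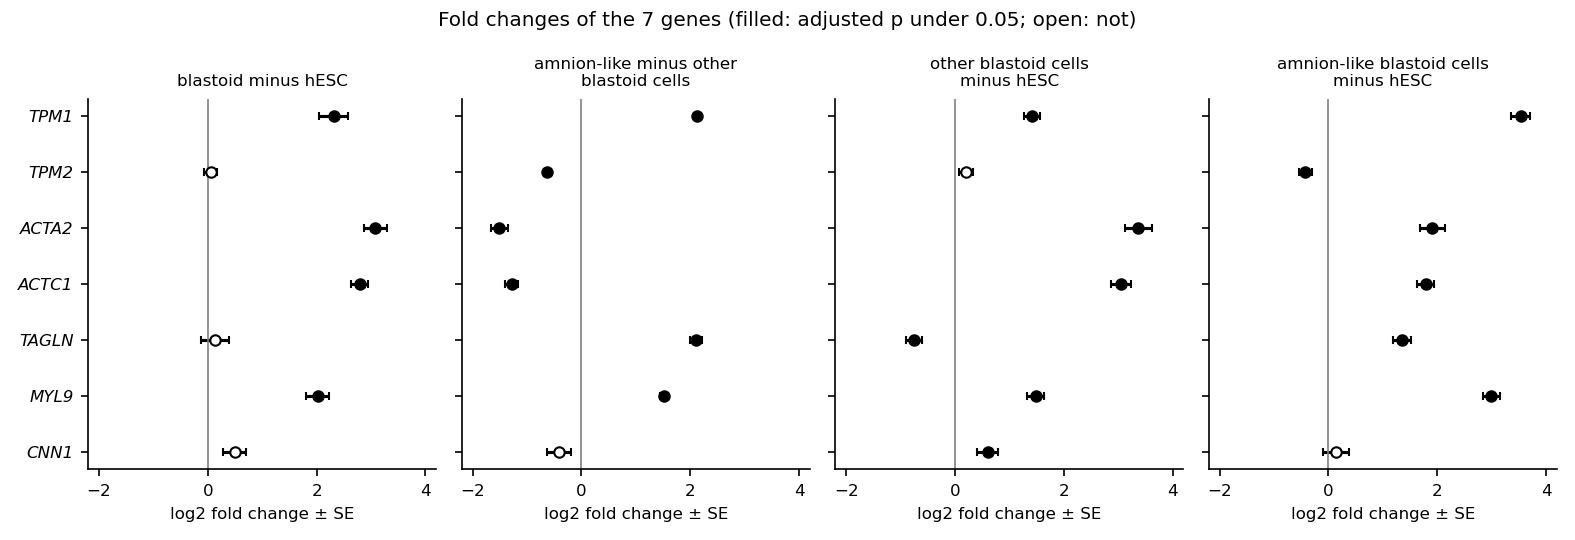
Log2 fold change of each gene (horizontal axis, bars are ± 1 SE, 2 sums per group) in the 4 comparisons; filled points passed an adjusted p of 0.05 and open points did not. In amnion-like against other blastoid cells TPM1 (2.12), TAGLN (2.11) and MYL9 (1.52) lay to the right and TPM2 (-0.62), ACTA2 (-1.51) and ACTC1 (-1.28) to the left.

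Leaving out the kept cells whose barcode also occurred in another library of the group, 1310 of hESC 2 and 1010 of blastoid 4 among them, left every call of the 7 members in the first and second comparison as it was. For blastoids against hESC the log2 fold changes were then 2.38 for TPM1, 3.33 for ACTA2, 2.89 for ACTC1 and 2.21 for MYL9. For amnion-like against other cells they were 1.98 for TPM1, 1.88 for TAGLN, 1.34 for MYL9, -0.71 for TPM2, -1.84 for ACTA2 and -1.65 for ACTC1.

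The depth of the cells differed between groups, so the share of cells with a UMI was read after each cell was thinned to 2000 UMIs, which left out shallower cells and kept 1803 and 2202 hESC cells and 2171 and 1874 blastoid cells. TPM1 was then found in 48.97% and 50.5% of hESC cells and in 77.1% and 82.4% of blastoid cells. MYL9 went from 5.49% and 7.13% to 20.04% and 26.7%, ACTA2 from 0.887% and 0.59% to 5.2% and 6.56%, and ACTC1 from 2.11% and 2.13% to 6.54% and 7.84%. These 4 genes were thus found in more blastoid cells at equal depth, and most cells still had no ACTA2 or ACTC1 UMI. TPM2 was found in 32.5% and 33.3% of hESC cells and in 39.1% and 35.9% of blastoid cells. The groups overlapped for TAGLN, at 5.16% and 5.31% against 3.64% and 7.47%, and for CNN1, at 1.28% and 1.59% against 2.26% and 1.23%. With 2 libraries against 2 the exact two-sided permutation test cannot go below p = 0.33, the value it gave for all 5 genes that did not overlap. Before thinning, the shares in hESC and in blastoids were 74.1% and 68.5% against 93.7% and 97.3% for TPM1, and 61.97% and 56.1% against 72.2% and 78.6% for TPM2. They were 1.92% and 2.08% against 13.4% and 19.3% for ACTA2, and 4.69% and 4.57% against 13.04% and 18.1% for ACTC1. MYL9 was then found in 14.3% and 14.8% against 44.6% and 62.3% of cells, TAGLN in 10.8% and 10.9% against 9.09% and 17.5%, and CNN1 in 3.66% and 3.5% against 7.42% and 7.52%, so the CNN1 groups did not overlap before thinning.

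For the shares by class the amnion-like rule was applied to the thinned counts, which gave 191 and 333 amnion-like and 1980 and 1541 other cells, so the others hold cells that the rule calls amnion-like at full depth. In amnion-like cells nearly every thinned cell had TPM1, 96.9% and 99.7%, and the median cell held 8 and 11 UMIs of it, against 75.2% and 78.7% with a median of 2 UMIs in the other blastoid cells of both libraries. The exact 95% binomial intervals, which cover counting error only, were 93.3% to 98.8% and 98.3% to 99.99% for the amnion-like cells. MYL9 was found in 35.6% and 43.5% of amnion-like cells and in 18.5% and 23.1% of the others, and TAGLN in 7.33% and 18.3% against 3.28% and 5.13%. ACTA2, the reverse case, was found in 3.14% and 2.7% of amnion-like cells and in 5.4% and 7.4% of the others. ACTC1 was found in 2.09% and 5.11% of amnion-like cells (exact intervals 0.573% to 5.28% and 3% to 8.05%) and in 6.97% and 8.44% of the others. Before thinning, amnion-like and other cells had TPM1 in 99.4% and 100% against 92.7% and 96% of cells, MYL9 in 70.3% and 82.9% against 39.8% and 52.3%, TAGLN in 20.6% and 31.2% against 6.93% and 10.9%, and ACTA2 in 7.22% and 9.9% against 14.6% and 23.9%. As a floor for free RNA in the same libraries, the pluripotent-like cells of the blastoids (cluster 10, described next) had an ACTA2 UMI in 0 of 87 and 0 of 108 thinned cells. With 3 cells as the limit for a count of 0, this allows shares of up to 3.45% and 2.78%. The thinned ACTA2 shares of amnion-like cells lay below these limits and above the observed 0. So few cells cannot decide whether these shares exceeded background. The same cells had an ACTC1 UMI in 1 cell of each library, and the ACTC1 interval of amnion-like cells in blastoid 3 held the hESC shares of 2.11% and 2.13%.

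Cells of all libraries were then grouped into clusters (Leiden method) without the members and the genes of the contractile lists, and the members' levels were read in the blastoid clusters as a description. Clusters 2, 6 and 7 were mesenchyme-like, with all 10 mesenchyme markers, and were led by TECRL and NPNT, by PITX1 with the cell-cycle gene PBK, and by CXCL14 and POSTN. Cluster 4, led by PAPPA2, VTCN1, KRT16 and TFAP2B, was called amnion-like, with all 7 amnion and trophectoderm markers. That list holds the 5 markers of the rule, so the name does not tell amnion from trophectoderm here either. Cluster 9, led by MESP1 and MSGN1, was nascent mesoderm-like with 3 of 5 markers, although 8 of the 10 mesenchyme and 5 of the 7 pluripotency markers were also found in it, and cluster 10, led by TMPRSS11E and NODAL, was pluripotent-like with all 7 pluripotency markers, although 6 of the 7 amnion and trophectoderm markers were also found in it. A marker counted when at least 10% of a cluster's cells had a UMI of it. Cluster 12, led by CD34 and ESAM, had 5 and 12 cells and is not ranked.

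TPM1 was highest in amnion-like cluster 4, at 3763 and 5074 CPM. Next came CXCL14 cluster 7 at 1373 and 1640 CPM and TECRL cluster 2 at 1220 and 1434 CPM, whose libraries overlapped. PITX1 cluster 6 at 807 and 976 CPM, MESP1 cluster 9 at 722 and 738 CPM, NODAL cluster 10 at 589 and 485 CPM and hESC followed without overlap. Cluster 10 held 20 and 24 cells that the rule calls amnion-like. The CD34 cells of cluster 12 lay below hESC in TPM1, with 152 and 234 CPM from 5 and 28 UMIs.

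MYL9 was highest in cluster 4 as well, at 257 and 296 CPM, ahead of cluster 7 at 173 and 199 CPM. Clusters 2, 10 and 6 overlapped in sequence, at 101 and 129, 114 and 82.5, and 73.1 and 83.4 CPM, and cluster 9 at 47.7 and 62.0 CPM stood above hESC. Among blastoid clusters TAGLN set cluster 4 apart most sharply, at 99.5 and 117 CPM. The whole hESC libraries came next at this resolution, and every other ranked blastoid cluster lay below them. TAGLN also differed within hESC. The hESC cells of cluster 8, led by HIST1H4D, were at 143 and 59.4 CPM, from 28 and 20 UMIs. Those of cluster 5, led by NPTX1, were at 19.0 and 21.3 CPM. Clusters 10, 2, 7 and 6 spanned 18.1 to 31.9 CPM with overlap between neighbours, and cluster 9 was lowest at 13.6 and 2.14 CPM, the latter from 1 UMI.

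ACTA2 was highest in cluster 2, at 47.7 and 73.7 CPM, but overlapped there with cluster 7 at 38.0 and 48.2 CPM, which overlapped with cluster 6 at 37.2 and 47.6 CPM. Cluster 9 at 17.0 and 19.3 CPM and cluster 4 at 14.5 and 15.4 CPM followed without overlap, and cluster 10 at 7.36 and 1.43 CPM did not differ from hESC beyond the spread of its libraries. ACTC1 was highest in cluster 2, at 101 and 146 CPM, ahead of cluster 6 at 93.7 and 85.7 CPM. Cluster 7 at 42.1 and 75.7 CPM, cluster 4 at 42.5 and 31.7 CPM and cluster 9 at 37.5 and 8.56 CPM each overlapped with the next, and cluster 10 at 7.36 and 9.32 CPM was at the stem cell level.

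TPM2 was highest in clusters 2 and 7, which overlapped at 310 and 326 CPM and 292 and 316 CPM, and was next in cluster 6 at 259 and 274 CPM and cluster 9 at 227 and 229 CPM. Amnion-like cluster 4 at 159 and 158 CPM and cluster 10 at 121 and 115 CPM both lay below hESC. CNN1 was at 17.8 and 13.8 CPM in cluster 7 and at 15.5 and 11.2 CPM in cluster 6, which overlapped. Cluster 2 followed without overlap at 9.71 and 8.76 CPM, and from there down each population overlapped with the next.

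**Figure D3:**
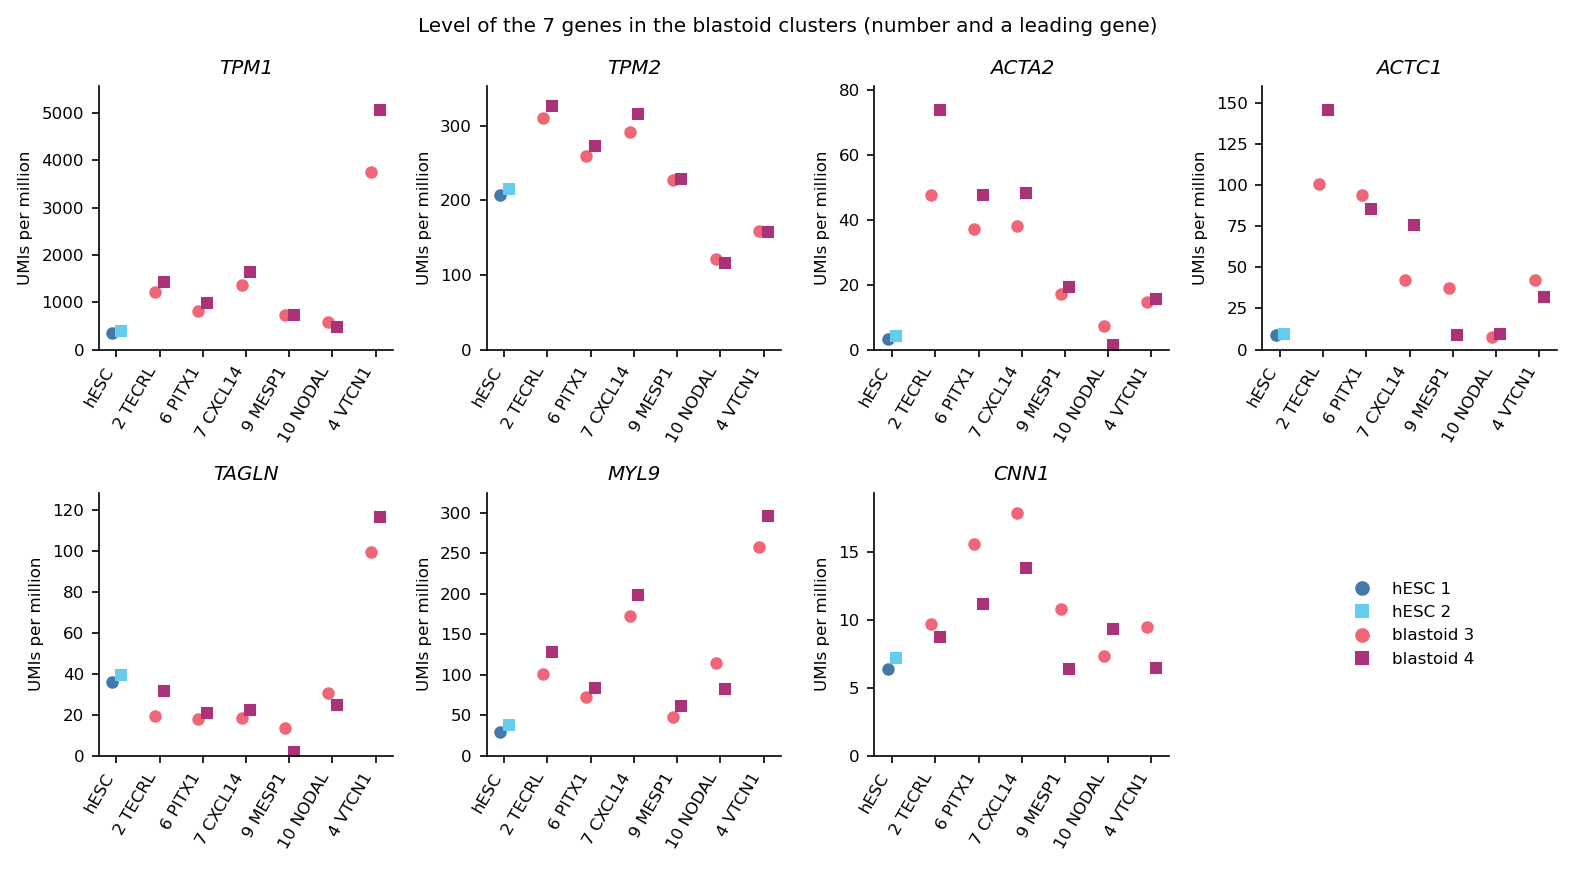
Level of each gene in CPM (vertical axes, linear from 0, a separate scale per gene) in stem cells and in the 6 blastoid clusters of at least 40 cells per library, named by number and a leading gene; points are libraries. Cluster 4 stands apart for TPM1 (3763 and 5074), TAGLN (99.5 and 117) and MYL9 (257 and 296), and the mesenchyme-like clusters 2, 6 and 7 stand highest for TPM2 and ACTA2.

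At a finer clustering (resolution 1.0 in place of 0.5) the cells with most actin fell together. A cluster of 157 and 121 cells led by TECRL, NPNT and PLAT, with the atrial myosin light chain MYL7 among its 10 leading genes, had ACTA2 at 117 and 208 CPM and ACTC1 at 165 and 238 CPM. Its libraries did not overlap with those of the next cluster for either actin. TPM1 at 5373 and 6057 CPM and TAGLN at 115 and 136 CPM were highest in a cluster of 206 and 452 cells led by PAPPA2, MTUS2 and IGFBP7. MYL9 was highest, at 264 and 319 CPM, in a cluster of 54 and 47 cells led by CGA and CYP19A1, which serve hormone production in the trophoblast, but overlapped there with the next cluster. The cluster with most actin also had TAGLN at 48.2 and 97.8 CPM, above hESC and overlapping with the CGA cluster at 83.6 and 64.6 CPM and a cluster led by KNG1 and KRT23 at 75.0 and 57.3 CPM. So TAGLN above the stem cell level was not confined to the amnion-like cluster. Within hESC, a cluster of 265 and 325 cells led by MT1G had TAGLN at 84.3 and 109 CPM. A cluster led by NPTX1 had 18.3 and 27.9 CPM in the same libraries. The pluripotent-like cells with NODAL and TMPRSS11E, 54 and 88 cells at this resolution with 7 pluripotency markers and 1 amnion or trophectoderm marker, had TPM1 at 351 and 392 CPM, which overlapped with hESC.

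The amnion-like rule has a threshold, so the members were also read by the number of the 5 markers found in a cell, after thinning to 2000 UMIs. TPM1 went from 1101 and 1453 CPM in cells with 0 markers to 2355 and 3861 CPM with 1, 4150 and 5193 CPM with 2, and 4565 and 6131 CPM with 3 or more. Cells with 1 marker, which the rule leaves among the other cells, were thus already well above those with 0. TPM2 went the other way, from 271 and 272 CPM with 0 markers to 202 and 176 CPM with 1 and 186 and 136 CPM with 2, but 176 and 175 CPM with 3 or more. TAGLN was at 20.2 and 30.4 CPM with 0 markers, 47.7 and 99.6 CPM with 1 and 91.2 and 153 CPM with 2. In the 54 cells of blastoid 3 with 3 or more markers it had 0 UMIs, and 3 UMIs, the limit used here for a count of 0, would equal 27.8 CPM, while the 134 such cells of blastoid 4 had 123 CPM.

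**Figure D4:**
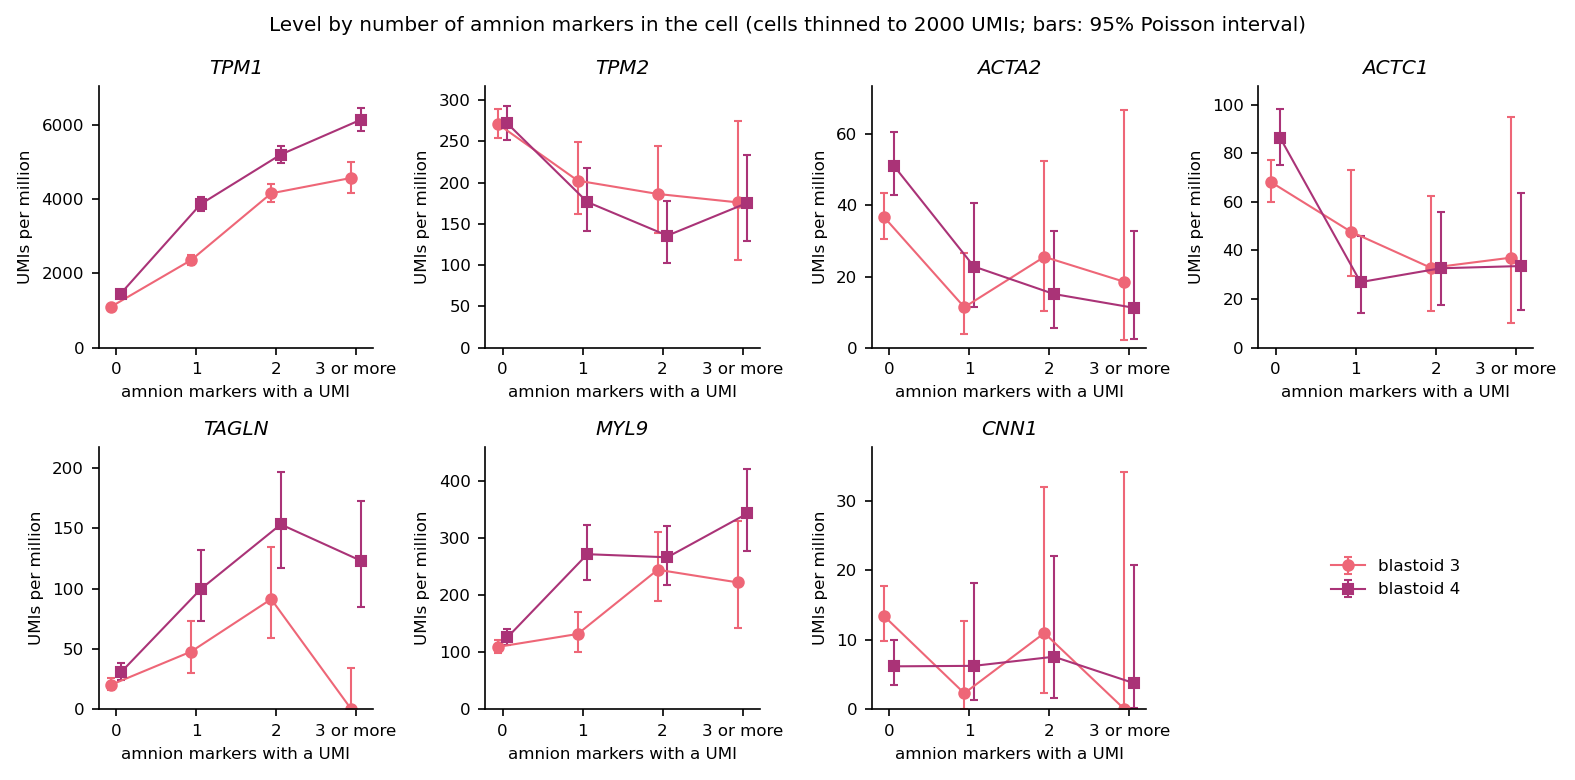
Level of each gene in CPM (vertical axes, linear from 0, a separate scale per gene) against the number of amnion markers with a UMI in the cell (horizontal axis), in cells thinned to 2000 UMIs; lines join the points of a library and bars are exact 95% Poisson intervals of counting error. TPM1 was higher at each step in both libraries, from 1101 and 1453 CPM to 4565 and 6131 CPM, and ACTA2, ACTC1 and CNN1 rest on few UMIs beyond 0 markers.

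Within the other blastoid cells, thinned cells with an ACTA2 UMI more often had TAGLN, 11.2% against 2.8% of cells without ACTA2 in blastoid 3 and 13.2% against 4.48% in blastoid 4, with exact 95% intervals apart in both libraries. TPM1 was also found more often beside ACTA2, in 86.9% against 74.5% and in 89.5% against 77.8% of these cells. Each such cell is 1 of the same 2 libraries, so these shares describe the libraries. All pairs of the 7 genes were read in this way, with no allowance for their number. Beside ACTA2, only TAGLN and TPM1 had intervals apart in both libraries, and MYL9 in blastoid 4 alone. For ACTC1, TPM2 and CNN1 the shares with and without ACTA2 had overlapping intervals in both libraries. In amnion-like cells, where 6 and 9 thinned cells had an ACTA2 UMI, no member had intervals apart beside ACTA2. Across 11 sums of a blastoid cluster in a library, of at least 50 cells each, TPM2, ACTA2 and ACTC1 followed one another (Pearson r of log2 CPM + 1 between 0.90 and 0.94). TPM1, TAGLN and MYL9 formed the other group (0.79 to 0.85), and TPM1 against TPM2 gave 0.09. At the finer clustering ACTA2 and ACTC1 still shared their highest cluster, but the division did not hold throughout. TPM2 was highest in a cluster led by CRHBP, at 393 and 375 CPM, against 257 and 304 CPM in the cluster with most actin. A cluster led by THBD came next for ACTA2, at 52.2 and 78.2 CPM, but had ACTC1 at 26.1 and 34.1 CPM. The cluster with most actin also had TPM1 at 1922 and 2166 CPM and MYL9 at 187 and 245 CPM, above hESC. The 11 points behind the r values share 2 libraries, so these values are descriptions.

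By the same measure, over 3254 genes with a mean of at least 50 CPM, the genes most like each member were listed. TPM1 ran closest to IGFBP5 (0.98), SECISBP2L and EIF1, TAGLN to RBPMS (0.98), RAB11FIP1 and C4orf3, and MYL9 to PDLIM2 (0.98), LIMA1 and EEA1. ACTA2 ran closest to VIM (0.96), MPDZ and HAND1, ACTC1 to UBE2R2 (0.96), CITED2 and HAND1, and TPM2 to RGS4 (0.99), ARID5B and ANKRD26. CNN1, with few UMIs, had the lowest top r, with ATAD2 (0.91), followed by CDC27 and SUZ12. Each of these genes was picked for a high r among 3254 genes over only 11 sums. Such a search yields high r values by itself, so they are descriptions and were not tested.

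Other genes of the contractile apparatus were read from 9 lists with 100 symbols, of which 92 were in the tables and 85 were tested for blastoids against hESC. There 39 passed as higher and 11 as lower, and of 84 tested for amnion-like against other cells 45 passed as higher and 14 as lower. Over all genes tested, 27.1% passed as higher and 22.8% as lower for blastoids against hESC. For amnion-like against other cells these shares were 25.6% and 24.4%. They are the background for the counts of each list below. The other actins and tropomyosins did not follow the members in the first comparison: of 3 actins tested 0 were higher and ACTA1, skeletal actin, was lower (11.4 and 10.9 CPM against 2.32 and 3.79 CPM, log2 fold change -1.98 ± 0.28). TPM3 was lower (-0.51 ± 0.13) and TPM4 did not pass (0.16 ± 0.12). The cytoskeletal actin ACTB was at 2132 and 2434 CPM in hESC and 2003 and 2519 CPM in blastoids, and did not pass (-0.14 ± 0.19).

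Of the 10 smooth muscle and nonmuscle myosin genes tested, 0 passed for blastoids against hESC, MYLK, the kinase that acts on MYL9, included (0.55 ± 0.29, adjusted p = 0.147). In amnion-like against other cells 6 passed as higher and 2 as lower, among them MYLK, at 25.3 and 37.1 CPM against 8.19 and 7.89 CPM (2.12 ± 0.17), MYH14 (2.19 ± 0.18) and MYH9 (0.94 ± 0.08) as higher and PPP1R14A, an inhibitor of myosin phosphatase, as lower (-0.80 ± 0.13). ACTB (0.66 ± 0.03), ACTG1 (0.40 ± 0.03), TPM3 (0.31 ± 0.06) and TPM4 (0.22 ± 0.06) were higher in amnion-like cells, and ACTA1 was lower (-1.26 ± 0.40).

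Of 28 thin filament and crosslinking genes, 11 passed as higher and 6 as lower in blastoids, and 17 as higher and 5 as lower in amnion-like cells. FLNC, a filamin of muscle, had the largest rise in blastoids (1.28 and 1.13 CPM to 30.3 and 19.9 CPM, 4.24 ± 0.27), and TMSB4X, which binds actin monomers, had the largest fall (-1.55 ± 0.16). TAGLN2, a paralog of TAGLN, did not share its pattern, since it was higher in blastoids (1.60 ± 0.16) and lower in amnion-like cells (-0.35 ± 0.09). In amnion-like cells SYNPO2 had the largest rise (2.06 ± 0.26) and TAGLN3 the largest fall (-3.30 ± 0.58).

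Of 13 striated muscle genes tested in blastoids, 8 passed as higher and 2 as lower. The troponin TNNI1 was at 0 and 0.44 CPM in hESC and 27.9 and 32.0 CPM in blastoids, and was lower in amnion-like than in other cells (0.755 and 3.51 against 33.6 and 47.7 CPM, -3.89 ± 0.24). The atrial light chain MYL4 was listed in neither hESC table and reached 3.18 and 4.69 CPM in blastoids, TNNC2 was lower in blastoids (-4.43 ± 0.33), and ACTN2 was higher in amnion-like cells (2.29 ± 0.29). Of the 12 striated genes tested there, 3 passed as higher and 3 as lower. The summed heart muscle markers were at 93.1 and 78.1 CPM in hESC and 54.5 and 56.0 CPM in blastoids, most of the hESC sum being TNNI3. The 6 smooth muscle markers summed to 6.34 and 6.85 CPM in hESC and 14.0 and 15.8 CPM in blastoids. Between classes their sum went against ACTA2 and ACTC1, at 24.2 and 22.1 CPM in amnion-like and 11.9 and 12.4 CPM in other cells. DES among them was lower in amnion-like cells, at 0.377 and 0.319 CPM against 3.45 and 2.72 CPM.

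The summed level of the 6 pericyte markers moved with the actins, at 29.5 and 33.5 CPM in hESC, 424 and 444 CPM in other blastoid cells and 90.2 and 59.9 CPM in amnion-like cells, most of the blastoid sum being RGS5, and 1 of the 6 was at 0 in each hESC library. NOTCH3, another of them, went the other way between classes, at 36.6 and 27.2 CPM in amnion-like and 27.7 and 20.3 CPM in other cells, with 21.1 and 23.9 CPM in hESC. The mesenchyme markers moved with them too, at 4742 and 4267 CPM in other cells and 730 and 989 CPM in amnion-like cells. Their part in the results for ACTA2, ACTC1 and TPM2 was not tested.

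Among regulators, SRF rose modestly in blastoids, at 14.0 and 14.0 CPM in hESC against 31.5 and 19.1 CPM (0.71 ± 0.22, adjusted p = 0.0296), and its cofactors MYOCD (2.63 ± 0.40) and MRTFB (0.66 ± 0.16) passed as well. SRF did not pass between amnion-like and other cells (0.10 ± 0.14, adjusted p = 0.589), whereas MYOCD did (1.28 ± 0.38), from 12 to 24 UMIs in each sum. Of 10 other targets of SRF or YAP, 9 passed as higher and 0 as lower in blastoids, and 9 as higher and 1 as lower in amnion-like cells. ANKRD1 was listed in neither hESC table and was at 31.3 and 34.6 CPM in blastoids, with 105 and 85.1 CPM in amnion-like and 15.7 and 6.75 CPM in other cells, and TGFBI was higher (3.58 ± 0.15) and FHL1 lower (-1.15 ± 0.12) in amnion-like cells. Some genes of this list, such as FOS and EGR1, also respond to cell dissociation.

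Of 7 TGF-beta ligand and receptor genes tested, 4 passed as higher in blastoids, led by TGFB2 (0.604 and 0.44 CPM to 11.1 and 8.99 CPM, 4.13 ± 0.30), and in amnion-like cells 0 passed as higher and 1, TGFBR3, as lower (-2.08 ± 0.19).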

How the data were processed

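Droplet libraries (10x Genomics 3′ v3.1) were counted with Cell Ranger on GRCh38, per the submitters' processing notes, and each sample has its own deposited matrix of whole-number UMI counts by gene symbol. The aligner settings and the use of strand are not given in the sources used here. A gene missing from a table was set to 0. Cells with at least 500 genes were kept, and Scrublet in scanpy 1.11.5 removed 73 of 9680 cells (0.754%; 0 in hESC 2), so doublets of similar cells remain. UMIs were summed per library and class and tested in edgeR 4.0.16 (TMM scaling, filterByExpr, quasi-likelihood F-test, Benjamini-Hochberg adjustment over all genes tested); the SE is the log2 fold change divided by the square root of F. DESeq2 1.42.0 was an alternative. CPM is UMIs per 1000000 UMIs of the summed library or class, without TMM, and 3′ counts were not scaled by gene length. On simulated counts, 97% of genes changed by log2 1 and 100% of those changed by log2 2 were recovered for blastoids against hESC (16139 genes). The shares were 95% and 100% for amnion-like against other cells (14702 genes). The simulation changed 100 well-counted genes by each amount, gave all genes the same small dispersion and had no library effect. These shares therefore check the fit and do not give its power in the real data. Clusters came from 2000 variable genes, 30 components and 15 neighbours at Leiden resolution 0.5. The rule for named genes took all 7 members, the called gene with the largest rise and the largest fall of each list in both main comparisons, genes with a role a paragraph turns on, and the 3 nearest genes of each member. The genes of 1 list, counted in the totals over all 9 lists, are not reported here. The members, lists and tests were chosen with earlier results of these data known. Gene positions and promoters are from RefSeq, GRCh38.p14. Other settings tried were size-factor and library-size scaling, no count filter, doublets kept, all deposited cells, at least 1000 genes, no shared barcodes, thinning, 3 or more amnion markers, no block, other cells without pluripotent-like ones, each library left out and, chosen after seeing the data, the cell with most ACTC1 UMIs of each class left out.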

Additional observations from a re-analysis of the deposited data

Results flagged for a closer look

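Barcodes with fewer than 500 genes, which no comparison of the report uses, were read as well. For 5 of the 7 members (TPM1, ACTA2, ACTC1, TAGLN and MYL9) their level in both blastoid libraries lay above that in both hESC libraries. TPM1 was at 2228 CPM in 1198 such barcodes of blastoid 3 and at 3189 CPM in 120 of blastoid 4 (mean 2710 CPM). In the 3676 and 4400 such barcodes of hESC 1 and hESC 2 it was at 374 and 382 CPM. MYL9 was at 145 and 224 CPM in these blastoid barcodes (mean 184 CPM), against 32.6 and 30.5 CPM in hESC. ACTA2 was at 24.2 and 74.6 CPM, from 11 and 4 UMIs (mean 49.4 CPM), against 2.08 and 3.33 CPM in hESC. ACTC1 was at 68.2 and 18.6 CPM, from 31 and 1 UMIs (mean 43.4 CPM), against 11.8 and 5.55 CPM. TAGLN was at 70.4 and 37.3 CPM, from 32 and 2 UMIs (mean 53.8 CPM), against 34.7 and 31.1 CPM in hESC. The means give both blastoid libraries equal weight. TPM2 was at 249 and 205 CPM in these blastoid barcodes against 216 and 200 CPM in hESC, and CNN1 at 8.80 and 0 CPM against 9.02 and 7.21 CPM. The blastoid libraries share 1035 barcodes, none of them kept in both, so most of these blastoid 3 barcodes also occur in blastoid 4, and their part in these levels was not tested.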

How the results depend on the processing

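Of 413 member values under other settings, 388 kept their direction and their side of the threshold, 11 lost a call, 5 gained one, 2 changed sign and 7 untested values moved. The sign changes were TAGLN in blastoids without blastoid 4 (-0.39, against 0.50 without blastoid 3) and the uncalled CNN1 in amnion-like cells against hESC after thinning (-0.19). Leaving out a library gave 4896 to 10157 called genes and 0 to 1 members called lower for blastoids against hESC, where 8157 genes and 0 members were called, and 0 to 1 members called lower for amnion-like cells against hESC. Amnion-like against other cells gave 7464 called genes with the library as a block, 4408 (2336 higher, 2072 lower) without the replicate block, 3430 under DESeq2 and 2856 after thinning to 2000 UMIs. Thinning also gave 4835 called genes and 0 members lower for amnion-like cells against hESC. For other blastoid cells against hESC, 0 members were called lower after thinning and without shared barcodes. With library size alone the median of all genes moved from 0.05 to 0.18 for blastoids, from 0.04 to 0.19 for other blastoid cells and from -0.02 to -0.16 for amnion-like against other cells, where CNN1 then passed (-0.55). With blastoid 4 or blastoid 3 alone, amnion-like against other cells gave values with no test, 2.23 and 2.03 for TPM1. The single-library fits leave fewer samples; for the other changes the cause was not tested. Leaving out the cell with most ACTC1 UMIs in each class, a setting chosen after seeing the data, changed no call of the 7 members. No paired analysis was possible because hESC and blastoid samples share no replicate number. Depth limits CNN1 and ACTA2 most, with 24 and 37 UMIs in their smallest sums.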
